A study of Mus musculus with 2 samples.

Results

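The Krüppel-like factor (KLF) genes Klf2, Klf3, Klf4, Klf5, Klf6, Klf7, Klf9, Klf10, Klf13 and Klf15 were followed on 2 mouse expression arrays. Their probe sets were those that the platform annotation assigns to 1 gene symbol only, that symbol being one of these 10 genes, which gave 27 of the 22626 probe sets other than controls. NIH 3T3 cells, an immortalised mouse embryonic fibroblast line, were transfected with the plasmid pHA-CMV-ATCE1-C-del or with the empty pHA-CMV vector, both with Lipofectamine, and total RNA was taken at 48 hours. ATCE1 is the bZIP protein of the CREB and ATF family that Creb3l4 encodes, and the construct lacks its C-terminal part, which gives a form described as nuclear. There was 1 array for ATCE1-C-del and 1 for empty vector, so the values below have no replicate error and were not tested. The sources used here do not give the share of cells that took up plasmid, and each array reads the whole culture, so less RNA per cell and fewer expressing cells cannot be told apart.

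KLF proteins bind GC-rich and CACCC-type DNA through a conserved run of C-terminal zinc fingers, and their N-terminal parts decide which partners they recruit. One class, with Klf3, binds the corepressor CtBP. Another, with Klf2, Klf4, Klf5, Klf6 and Klf7, mostly activates transcription through histone acetyltransferases. The last, with Klf9, Klf10 and Klf13, binds the corepressor Sin3a. In fibroblasts several of these genes are known as rapid responders to growth factors, hormones and stress, and different members favour growth arrest or proliferation.

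Values are MAS5 signals, which are linear, in arbitrary units, and comparable between the arrays for 1 probe set but not between probe sets. A probe set was called measured if at least 1 array reached 77.4, the higher of the array medians, and lower signals were raised to this floor before the ratio was taken. By this rule 23 of the 27 Klf probe sets were measured, 21 of them on both arrays, and they covered 9 of the 10 genes. Of the 23, 20 were lower with ATCE1-C-del and 3 were higher, where 49.7% of all 11586 measured probe sets were lower. Scaling to the hybridisation controls instead left 9 of the 23 lower, where 12.0% of all measured probe sets were. Quantile normalization left 18 lower, against 49.4% of all, and lowess 19, also against 49.4% of all. Taking the brightest probe set of each gene, 8 of 9 genes were lower, against 51.5% of all 6785 measured genes. Scaling to the hybridisation controls left 3 of 9 lower, against 11.7% of all measured genes. With the mean over all measured probe sets of a gene in place of the brightest, 6 of 9 were lower, against 50.4% of all genes. Klf6 and Klf13 then turned to log2 ratios of 0.02 and 0.08, Klf9 moved to -0.45, against -0.09 on its brightest probe set, and Klf7 moved to -0.33, against -0.55. Scaling to the hybridisation controls raises every log2 ratio above the floor by 0.27 and put the median of all genes at 0.26, so each direction given below is relative to the bulk of the array, and by the brightest probe set 8 of the 9 Klf genes lay below the median of all genes under both scalings, where by the mean over probe sets 6 did on the trimmed mean scaling. The differences were small: the median log2 ratio of the 9 genes was -0.14, against -0.0068 for all genes. Of the gene lists described below, coregulators and upstream regulators had medians of -0.12 and -0.13, close to that of the Klf genes. Relatives, glucocorticoid-induced genes and reported targets had medians of 0.08, 0.03 and 0.07. For a single probe set, the disagreement between probe sets of the same gene alone gives the log2 ratio an SD of 0.20. At 1.5-fold, 0 of the 9 genes were lower by their brightest probe set and 0 were higher, where 1.08% and 0.884% of all measured genes were. Probe sets of 1 gene read the same RNA, so neither they nor the genes are replicates of the transfection.

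**Figure D1:**
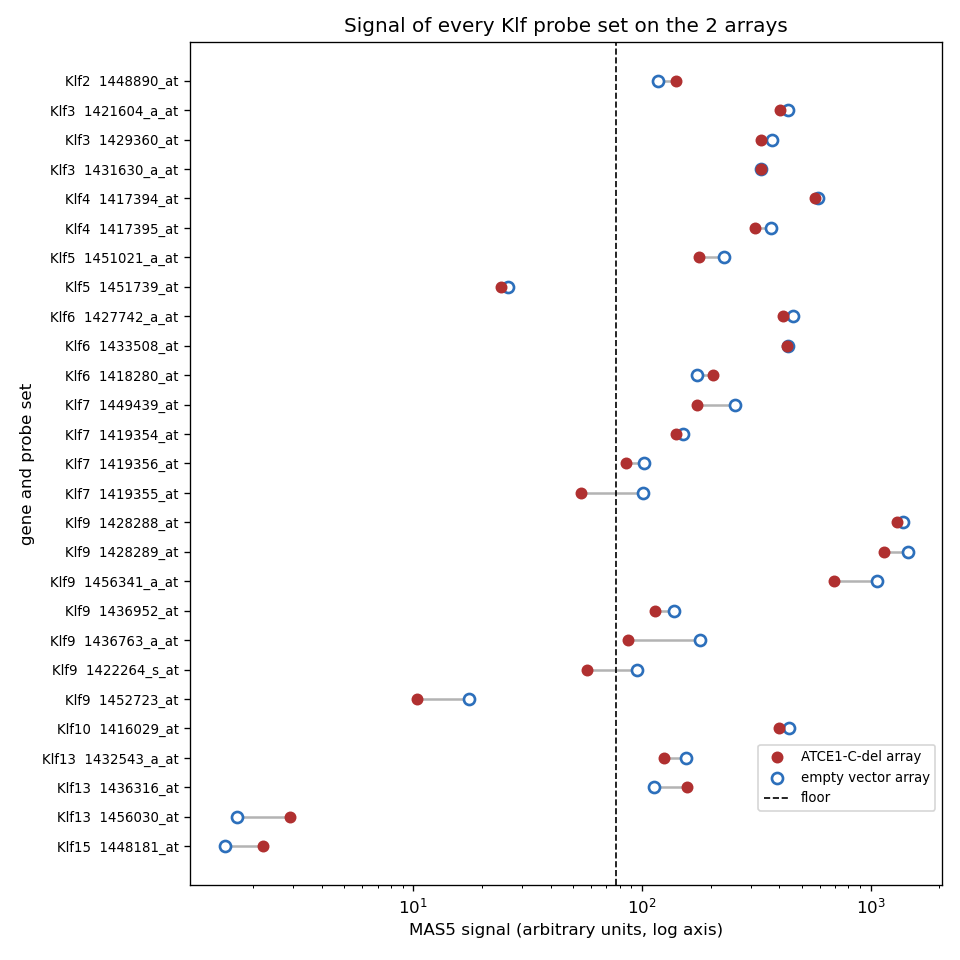
MAS5 signal (horizontal, log axis, arbitrary units) of all 27 Klf probe sets (rows), with filled points for the ATCE1-C-del array, open circles for the empty vector array and a dashed line at the floor of 77.4. The filled point lies left of the open one in 20 of the 23 measured rows, and 4 rows lie wholly under the floor. With scaling to the hybridisation controls 9 of the 23 are lower, where 12.0% of all measured probe sets are.

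The array facts that bear on these values are few. The single probe set of Creb3l4 read 18.0 in ATCE1-C-del cells and 20.7 in empty vector cells, both under the floor, so it does not check which culture carried the insert. All 14 fibroblast markers were measured, 7 lower and 7 higher with ATCE1-C-del, where 51.5% of all measured genes were lower. Their summed signal was 47972 in ATCE1-C-del cells against 48451 in empty vector cells. None of the 6 epithelial and 6 endothelial markers was measured, and of 6 macrophage markers only Cd68 and Cd14 were, with the defining markers Ptprc, Csf1r and Adgre1 under the floor on both arrays. Of 5 adipocyte markers 3 are named on the array, and only Lpl reached the floor, at 277 in ATCE1-C-del cells against 392 in empty vector cells. The 18 probe sets for the spiked hybridisation controls had a median log2 ratio of -0.25.

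Klf9, a Sin3-binding factor that thyroid hormone and glucocorticoids induce in many tissues, was the member with the most probe sets, 7, and all 6 that were measured were lower with ATCE1-C-del. With scaling to the hybridisation controls 5 of the 6 were lower, where 12.0% of all measured probe sets were. Of these, 1428289_at, 1436952_at and the bound of 1422264_s_at then lay at log2 ratios of -0.07, -0.004 and -0.03, inside the SD of 0.20. The brightest probe set, 1428288_at, read 1310.2 in ATCE1-C-del cells and 1391 in empty vector cells, only 1.06-fold lower. Probe set 1428289_at read 1150.3 in ATCE1-C-del cells and 1456 in empty vector cells (1.27-fold lower). These are among the brightest signals on the arrays, above the 93rd percentile in all 4 readings. A wider gap appeared on another bright probe set, 1456341_a_at, at 695 in ATCE1-C-del cells against 1068 in empty vector cells, which was 1.54-fold lower (log2 ratio -0.62).

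The dimmer Klf9 probe sets lay on the same side. Probe set 1436763_a_at read 86.7 in ATCE1-C-del cells and 179 in empty vector cells, 2.07-fold lower and the widest gap of any Klf probe set. Only 8 of all 11586 measured probe sets, 0.069%, were at least 2-fold lower, and the ATCE1-C-del reading of this one is close to the floor. Probe set 1436952_at read 114 in ATCE1-C-del cells against 139 in empty vector cells (1.21-fold lower). For 1422264_s_at the ATCE1-C-del signal of 57.7 was under the floor and the empty vector signal was 95.7, so the gene was at least 1.24-fold lower there. The suffix of this probe set marks probes that can match transcripts of more than 1 gene. The seventh, 1452723_at, lay under the floor on both arrays, at 10.4 in ATCE1-C-del cells and 17.5 in empty vector cells, and gives no fold.

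Some features of the Klf9 readings can be set against the rest of the array. The first is their common direction: among 21 genes with at least 6 measured probe sets, Klf9 was the only 1 with all of them lower (4.76%), which scaling to the hybridisation controls undid by turning 1428288_at. The second is their spread. With the bound of 1422264_s_at as it stands, the log2 ratios ran from -1.05 to -0.09, a range of 0.96. This was wider than in 95.5% of the 290 genes with at least 4 measured probe sets, whose median range was 0.40. A range tends to widen with the number of probe sets, and only 21 of the 290 genes had at least 6 measured, as Klf9 did. In total 2 of the 6 passed 1.5-fold, both as lower, where 1.4% of all measured probe sets were lower and 1.08% higher by that much. These readings were known when the genes were chosen, so the shares describe Klf9 and do not test it. In the annotation 3 of the 7 probe sets go back to the same sequence record, among them both of the brightest, so the 7 are not separate readings of the transcript.

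The sequence before the Klf9 start is shown because all its measured probe sets lay on one side and because ATCE1 belongs to a family that binds CRE sites. It holds the 250 bases upstream of the start given in RefSeq (GRCm38.p6, chr19:23140976-23141225, plus strand), with CRE cores (TGACG) and CACCC boxes on either strand in capitals.
Klf9: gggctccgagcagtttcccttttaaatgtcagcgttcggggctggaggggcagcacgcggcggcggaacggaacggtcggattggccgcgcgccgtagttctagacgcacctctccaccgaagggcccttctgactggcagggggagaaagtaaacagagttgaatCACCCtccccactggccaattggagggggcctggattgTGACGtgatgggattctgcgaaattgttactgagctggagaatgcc
A single CRE core begins at -46 and a single CACCC box at -84, counted back from the first base of the gene. No GC box (GGGCGG) was found in this window, on either strand.

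Klf10 and Klf13 are the other Sin3-binding members. Klf10, first described as a TGF-beta-inducible early gene, has 1 probe set, which read 400.0 in ATCE1-C-del cells and 440.5 in empty vector cells, 1.10-fold lower. Klf13, a factor known to bind the Ccl5 promoter in T cells, gave opposite readings on probe sets of similar brightness. Probe set 1432543_a_at read 125 in ATCE1-C-del cells against 156 in empty vector cells, 1.25-fold lower. Probe set 1436316_at read 157 in ATCE1-C-del cells against 113 in empty vector cells, 1.39-fold higher, the highest ratio among the Klf probe sets. The mean of both log2 ratios was 0.08, so the direction of Klf13 depends on the probe set. The remaining Klf13 probe set was under the floor on both arrays, at 2.9 in ATCE1-C-del cells and 1.7 in empty vector cells. Over the 9 measured probe sets of this class 8 were lower, against 49.7% of all measured probe sets, and the median log2 ratio was -0.31. Of the 9, 6 are those of Klf9. With scaling to the hybridisation controls Klf10 and the Klf9 probe set 1428288_at turned higher, to 0.13 and 0.19.

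**Figure D2:**
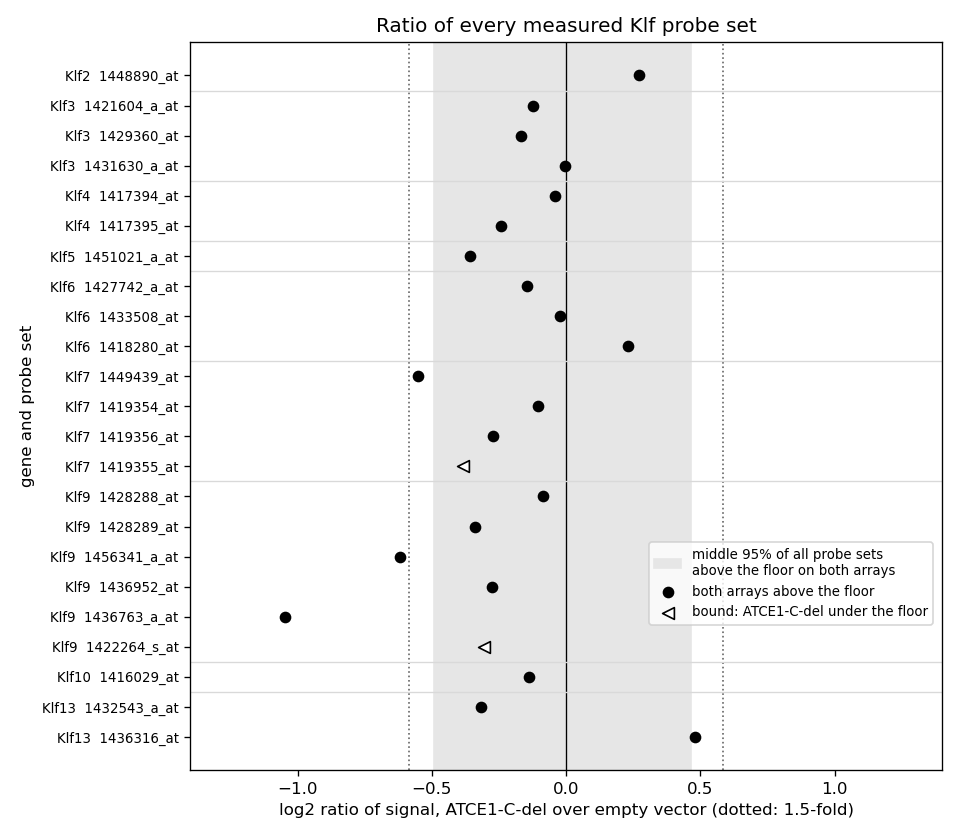
Log2 ratio of signal, ATCE1-C-del over empty vector (horizontal), of the 23 measured Klf probe sets, grouped by gene. The grey band is the middle 95% of all probe sets above the floor on both arrays, from -0.49 to 0.46, dotted lines mark 1.5-fold, and triangles are bounds. All 6 Klf9 and all 4 Klf7 points lie left of 0, and Klf13 has 1 on each side. With scaling to the hybridisation controls 5 of 6 Klf9 probe sets are lower, against 12.0% of all measured probe sets. Of these, 1428289_at, 1436952_at and 1422264_s_at then lie at -0.07, -0.004 and -0.03. That scaling also moves 2 of the Klf7 points above 0.

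Among the activator class, Klf7 stood lowest by the brightest probe set. By the median over measured probe sets Klf5, with a single one at -0.36, lay below Klf7 at -0.33. That Klf7 median takes in the bound of 1419355_at, at -0.38, which was -0.89 with no floor, so this order depends on the floor. Klf7, a broadly expressed factor known from neuronal development and from restraining adipocyte formation, had all 4 probe sets measured and all 4 lower with ATCE1-C-del, 2 of them turning to the other side with scaling to the hybridisation controls. The brightest, 1449439_at, read 175 in ATCE1-C-del cells against 256 in empty vector cells, 1.47-fold lower and just short of 1.5-fold. Probe set 1419354_at read 141 in ATCE1-C-del cells against 151 in empty vector cells (1.07-fold lower), a gap well inside the SD of a single probe set. Probe set 1419356_at read 85.0 in ATCE1-C-del cells against 103 in empty vector cells (1.21-fold lower). On 1419355_at the ATCE1-C-del signal of 54.5 was under the floor and the empty vector signal was 101, so Klf7 was at least 1.30-fold lower there. All 4 go back to the same sequence record in the annotation. With the bound as it stands the median log2 ratio of the 4 was -0.33, and 5 of the 290 genes with at least 4 measured probe sets had a lower one. For Klf9, with a median of -0.32 that also takes in a bound, 7 of them did. In 13.8% of those 290 genes all probe sets were lower.

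The upstream sequence of Klf7 (GRCm38.p6, chr1:64121390-64121639, minus strand, shown in the direction of the gene) is given beside that of Klf9 because all its probe sets were lower too. All measured probe sets of Klf3 (3) and Klf4 (2) were also lower, and their sequences are not shown. Capitals mark the GC box and the CACCC boxes, which appear here as GGGTG because they lie on the other strand.
Klf7: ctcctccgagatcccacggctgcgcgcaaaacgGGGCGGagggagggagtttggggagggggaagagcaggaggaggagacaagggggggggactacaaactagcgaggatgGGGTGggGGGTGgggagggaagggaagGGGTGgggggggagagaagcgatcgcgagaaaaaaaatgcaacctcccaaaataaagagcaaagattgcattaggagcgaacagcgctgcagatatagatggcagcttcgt
It holds 1 GC box, at -217, and 3 CACCC boxes between -138 and -111, but no CRE core.

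The remaining activator genes lay within 1.3-fold. Klf5, which promotes proliferation and is an early response gene in smooth muscle, read 178 in ATCE1-C-del cells against 228 in empty vector cells on 1451021_a_at, 1.28-fold lower, and its second probe set was under the floor on both arrays (24.2 in ATCE1-C-del cells, 25.9 in empty vector cells). Klf4, one of the factors used to reprogram fibroblasts to pluripotency, read 570.3 in ATCE1-C-del cells against 588 in empty vector cells on 1417394_at, 1.03-fold lower. Its other probe set, 1417395_at, read 311 in ATCE1-C-del cells against 368 in empty vector cells, 1.18-fold lower. Both Klf4 probe sets are bright, above the 75th percentile of each array, and the dimmer one showed the wider gap. Klf6, an immediate early gene with growth-suppressing activity, went both ways. Its readings were 415 in ATCE1-C-del cells against 460 in empty vector cells on 1427742_a_at (1.11-fold lower) and 429 in ATCE1-C-del cells against 437 in empty vector cells on 1433508_at (1.02-fold lower). On its dimmest probe set, 1418280_at, the reading was 206 in ATCE1-C-del cells against 175 in empty vector cells, 1.17-fold higher. Of these readings, Klf5 at a log2 ratio of -0.36, the dimmer Klf4 probe set at -0.24 and the dimmest Klf6 probe set at 0.23 exceeded the SD of a single probe set, and the rest did not. That SD does not depend on brightness. The dimmest Klf6 probe set has a mean signal under 200, where the log2 ratios of all measured probe sets had an SD of 0.29, so it lay inside that scatter.

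Klf2, which keeps lymphocytes and endothelium quiescent, was the only gene whose brightest probe set was higher with ATCE1-C-del. Its single probe set read 142 in ATCE1-C-del cells against 117 in empty vector cells, 1.21-fold higher, and stayed higher under every scaling tried. The upstream sequence of Klf2 (GRCm38.p6, chr8:72318812-72319061, plus strand) is shown as the contrast to the other 2, with CRE cores, GC boxes and CACCC boxes in capitals.
Klf2: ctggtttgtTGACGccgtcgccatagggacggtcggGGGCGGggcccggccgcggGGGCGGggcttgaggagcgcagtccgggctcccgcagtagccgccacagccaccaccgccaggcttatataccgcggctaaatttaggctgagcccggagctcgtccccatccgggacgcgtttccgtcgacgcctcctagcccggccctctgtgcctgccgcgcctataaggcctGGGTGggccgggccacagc
This window has a CRE core as well, at -241, with GC boxes at -214 and -195 and a CACCC box at -19. Whether any of these sequences bears on the ratios was not tested.

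Klf3, the CtBP-binding repressor that restrains adipocyte and B cell genes, was nearly level on 3 bright probe sets. The brightest, 1421604_a_at, read 402 in ATCE1-C-del cells against 438 in empty vector cells (1.09-fold lower), and 1429360_at read 331 in ATCE1-C-del cells against 372 in empty vector cells (1.12-fold lower). On 1431630_a_at the readings were 331 in ATCE1-C-del cells and 332 in empty vector cells. All 3 lay within the SD of a single probe set. With 1 array per group a difference of that size cannot be seen, nor can a larger one be told from variation between cultures. Klf15, which glucocorticoids induce in muscle, liver and fat and which acts in amino acid metabolism, read 2.2 in ATCE1-C-del cells and 1.5 in empty vector cells, far under the floor, and gives no direction.

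**Figure D3:**
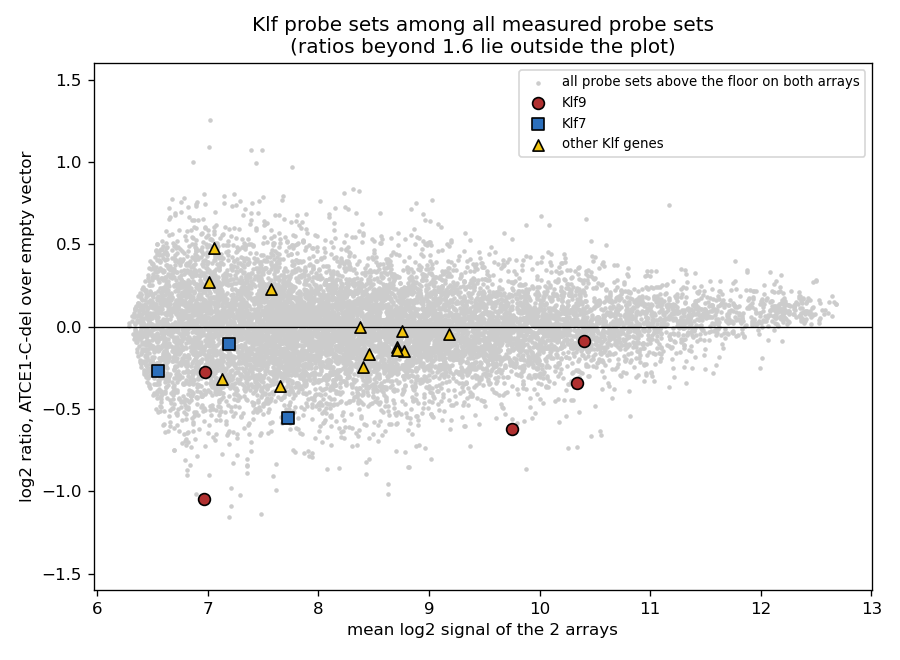
Log2 ratio, ATCE1-C-del over empty vector (vertical), against the mean log2 signal of both arrays (horizontal) for every probe set above the floor on both arrays (grey), with Klf9 as circles, Klf7 as squares and the other Klf genes as triangles. The Klf9 probe sets at a log2 ratio of -0.62 and -1.05 and the Klf7 probe set at -0.55 lie towards the lower edge of the grey cloud for their signal.

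The scatter of ratios depends on brightness, as the plot of ratio against signal shows. Among 5762 measured probe sets with a mean signal between 200 and 1000, the middle 95% of log2 ratios ran from -0.49 to 0.42 and 1.21% were at least 1.5-fold lower. The Klf9 probe set 1456341_a_at, at -0.62, and the Klf7 probe set 1449439_at, at -0.55, lay below that range, and all 11 Klf probe sets of this brightness were lower on the trimmed mean scaling, as were 54.0% of all probe sets there. Under a mean signal of 200 the range widened to -0.55 to 0.55, with 2.18% at least 1.5-fold lower. There the Klf9 probe set 1436763_a_at, at -1.05, lay below the range, and 7 of 10 Klf probe sets were lower, as were 48.5% of all probe sets there. Above 1000 the range was -0.31 to 0.33, and of the 2 brightest Klf9 probe sets 1428289_at, at -0.34, lay just below it while 1428288_at, at -0.09, lay inside it. Leaving Klf9 out, 14 of 17 measured Klf probe sets were lower (median log2 ratio -0.14), against 49.7% of all probe sets, and 4 of 17 with scaling to the hybridisation controls, against 12.0% of all. Without Klf7 and Klf9, 10 of 13 were lower and their median was -0.12, and 2 of 13 were lower with scaling to the hybridisation controls.

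Upstream sequences were found for 8 of the 10 genes, all but Klf5 and Klf10. The GC box, a sequence that KLF and SP proteins bind, was present in 7 of the 8 windows, where 32.7% of all 32851 windows of the same length in the table had it, and Klf9 was the exception. The CACCC box was present in 6 of 8, against 52% of all windows. A CRE core was present in 5 of 8 (Klf2, Klf4, Klf9, Klf13 and Klf15), against 17.8% of all windows. The full CRE palindrome (TGACGTCA) was in 0 of 8, against 1.55% of all windows. All searches used both strands, a palindrome was counted once, and a core inside a palindrome would count under both. The 8 windows had between 59.2% and 78.4% G and C, above the median of 52.4% over all windows. The shares describe letters in these windows and name no bound site.

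The relatives of these genes were mostly under the floor. Of the 16 other Klf and Sp genes considered, 10 are named on the array and only 3 were measured. Klf16, a Sin3-binding relative of Klf9 and Klf13, read 147 in ATCE1-C-del cells against 126 in empty vector cells (1.17-fold higher). Sp3 read 223 in ATCE1-C-del cells against 212 in empty vector cells (1.06-fold higher). Sp1, a ubiquitous GC box activator, read 762 in ATCE1-C-del cells against 875 in empty vector cells (1.15-fold lower) on its brighter probe set and 129 in ATCE1-C-del cells against 123 in empty vector cells on the other, which went the opposite way. Klf1, Klf12, Klf17, Sp4, Sp5, Sp6 and Sp7 were under the floor on both arrays.

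Genes that encode partners of KLF proteins lay on both sides of 0. Of 12 measured coregulator and ubiquitin ligase genes 5 were higher and 7 lower, where 51.5% of all measured genes were lower. At 1.5-fold 0 of the 12 passed, where 1.08% of all measured genes were lower and 0.884% higher. The median log2 ratio of the 12 was -0.12. The acetyltransferase gene Crebbp was 1.34-fold lower, at 82.3 in ATCE1-C-del cells against 110.2 in empty vector cells, and the ligase gene Btrc 1.20-fold lower, at 115 in ATCE1-C-del cells against 138 in empty vector cells. Fbxw7, whose product marks several KLF proteins for degradation, was 1.25-fold higher, at 130.2 in ATCE1-C-del cells against 104 in empty vector cells, and its second probe set gave a log2 ratio of 0.06. The deacetylase gene Hdac3 was 1.22-fold higher, at 387 in ATCE1-C-del cells against 316 in empty vector cells. Sin3a, the corepressor that Klf9 binds, read 154 in ATCE1-C-del cells against 176 in empty vector cells on its brightest probe set, and its other 2 lay on the higher side (log2 ratios of 0.13 and 0.14). Ctbp1, the partner of Klf3, read 1706 in ATCE1-C-del cells and 1599 in empty vector cells.

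Upstream regulators were split as well, with 6 of the 14 measured higher and 8 lower, where 51.5% of all measured genes were lower. Their median log2 ratio was -0.13. At 1.5-fold 0 of the 14 passed, where 1.08% of all measured genes were lower and 0.884% higher. Mef2c and Mef2a, factors through which the kinase Mapk7 induces Klf2 and Klf4, were 1.39-fold and 1.33-fold lower, at 153 in ATCE1-C-del cells against 213 in empty vector cells and at 292 in ATCE1-C-del cells against 388 in empty vector cells. Other probe sets of Mef2a lay on the same side, between -0.29 and -0.14, while those of Mef2c lay at -0.19 and 0.10. Mapk7 itself was 1.29-fold higher, at 218 in ATCE1-C-del cells against 169 in empty vector cells. Smad4, which serves the TGF-beta pathway upstream of Klf10, was 1.30-fold lower, at 666 in ATCE1-C-del cells against 867 in empty vector cells, with other probe sets at -0.27 and 0.13. The glucocorticoid receptor gene Nr3c1 read 416 in ATCE1-C-del cells against 491 in empty vector cells (1.18-fold lower), its other probe sets lying at 0.08 and 0.18.

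Glucocorticoid-induced genes, a class that Klf9 and Klf15 belong to in several tissues, lay on both sides of 0. Among the 12 measured, 8 were higher and 4 lower, where 51.5% of all measured genes were lower. At 1.5-fold 0 of the 12 passed, where 1.08% of all measured genes were lower and 0.884% higher. The median log2 ratio of the 12 was 0.03. Pdk4, a metabolic kinase, was 1.47-fold lower, at 202 in ATCE1-C-del cells against 298 in empty vector cells, and Ddit4 1.14-fold lower, at 704 in ATCE1-C-del cells against 805 in empty vector cells. Cebpb was 1.18-fold higher, at 1810.1 in ATCE1-C-del cells against 1534 in empty vector cells, and its second probe set gave a log2 ratio of 0.52. Errfi1 was 1.15-fold higher, at 493 in ATCE1-C-del cells against 431 in empty vector cells, and its second probe set gave a log2 ratio of 0.01. Per1 read 72.7 in ATCE1-C-del cells and 80.7 in empty vector cells, around the floor, and Fkbp5 read 428 in ATCE1-C-del cells and 427 in empty vector cells, and its second probe set gave a log2 ratio of 0.18.

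Reported KLF targets were split, 8 of the 15 measured being higher and 7 lower, where 51.5% of all measured genes were lower. Their median log2 ratio was 0.07. At 1.5-fold, 1.08% of all measured genes were lower and 0.884% higher. Only Ccl5, the chemokine gene that Klf13 is known to bind in T cells, passed 1.5-fold, at 402 in ATCE1-C-del cells against 90.6 in empty vector cells (4.43-fold higher), beside the 2 Klf13 probe sets at log2 ratios of -0.32 and 0.48. The cyclin gene Ccne1 was 1.36-fold higher, at 138 in ATCE1-C-del cells against 102 in empty vector cells, and Ccnd1 1.26-fold higher, at 520 in ATCE1-C-del cells against 413 in empty vector cells, with other probe sets at -0.07 and 0.40. Smad7, an inhibitor of TGF-beta signalling, was 1.24-fold lower, at 94.2 in ATCE1-C-del cells against 117 in empty vector cells. The arrest gene Cdkn1a, which several KLF proteins activate, read 727 in ATCE1-C-del cells and 765 in empty vector cells, a log2 ratio of -0.07, with its other probe set at 0.01.

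**Figure D4:**
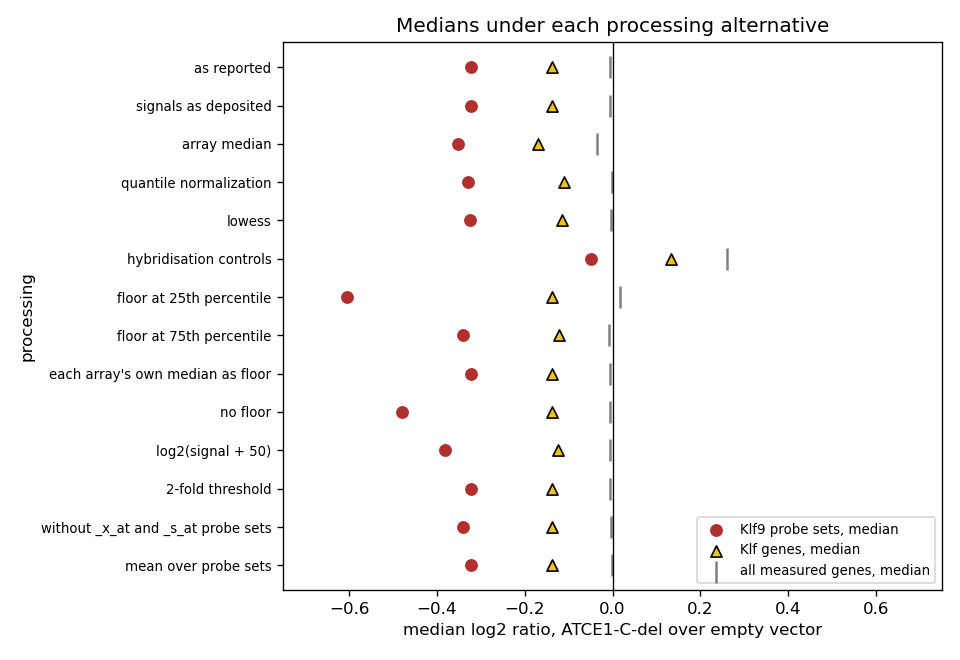
Median log2 ratio, ATCE1-C-del over empty vector (horizontal), of the measured Klf9 probe sets (circles), the measured Klf genes (triangles) and all measured genes (bars) as reported and under 13 processing alternatives (rows). The Klf9 circle lies left of the bar in every row, and the Klf triangle does too, but scaling to the hybridisation controls puts the triangle at 0.13, above 0.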

How the data were processed

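Each group had 1 Affymetrix array. The deposited table holds linear intensity values that the authors made with MAS5, per the submitters' processing notes, which give no version. Detection calls were not used here. Scaling was by the 2% trimmed mean of the array, 250.1 for both. Signals under the higher of the array medians, 77.4, were raised to it, a floor that stands in for a detection call and, being common to both arrays, cannot turn a direction. Log2 ratios are ATCE1-C-del over empty vector. The brightest measured probe set by mean log2 signal stood for a gene where genes were counted, with the mean over its measured probe sets as an alternative.

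Symbols came from the platform annotation, in which 20393 probe sets have 1 symbol, 691 have several and 1606 have none. Updating by Entrez ID through RefSeq (GRCm38.p6) changed 0. Upstream sequences are from RefSeq, and the deposited table of signals names no genome build.

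The members, the lists and the alternatives were chosen with earlier results of these data known, and so was the grouping by class. The text names every member probe set, every measured relative, and up to 4 genes per list with the largest ratio. Outside that rule Sin3a, Ctbp1, Nr3c1, Per1, Fkbp5 and Cdkn1a were chosen after their values were seen. With 1 array per group precision is limited by the number of arrays, and 1.5-fold served as a fixed size. The SD of 0.20 is that of the difference between the 2 brightest probe sets of 2440 genes, scaled to a single probe set, and leaves out variation between cultures. It is 1 value for all probe sets, although ratios of dim probe sets scatter more widely. The ratio step was tested on simulated data. The work used matplotlib 3.10.9, statsmodels 0.14.6 for lowess, scipy 1.17.1, pandas 2.3.3 and numpy 2.4.6 under Python 3.11.15.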

Additional observations from a re-analysis of the deposited data

How the results depend on the processing

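Among the 13 alternatives, scaling to the hybridisation controls moved the median log2 ratio of the Klf genes to 0.13 and that of the Klf9 probe sets to -0.050. It left 1 Klf9 probe set past 1.5-fold, as lower, where 7.11% of all probe sets passed either way and 0.20% as lower. This scaling moves all genes alike, and relative to the median of all genes the Klf genes stayed at -0.13. With the floor at the 25th percentile 4 of 7 Klf9 probe sets passed 1.5-fold and their median was -0.61, where 10.3% of all probe sets passed it either way and 3.66% as lower. That median is the bound of 1452723_at, which is also among the 4. It read 10.4 in ATCE1-C-del cells and 17.5 in empty vector cells, near this floor of 11.5. With no floor under the ratios, but the same floor of 77.4 for calling a probe set measured, 3 of 6 Klf9 probe sets passed. Their median was -0.48, and 3.66% of all passed either way and 1.88% as lower. With the floor at the 75th percentile 3 Klf9 probe sets and 5 Klf genes were measured. There 1 Klf9 probe set passed, as lower, where 0.83% of all passed either way and 0.56% as lower. At 2-fold 1 passed, as lower, where 0.147% of all did either way and 0.069% as lower. The number of Klf genes past 1.5-fold was 0 under every alternative run. Under array medians, quantile normalization, lowess and log2(signal + 50), 91 of the 92 recomputed ratios of Klf probe sets moved by less than the SD of 1 probe set. The exception was 1436763_a_at of Klf9, which moved to -0.75 under the last. Array medians shift every ratio above the floor alike and by less than this SD, so that part of the count was fixed in advance. Scaling to the hybridisation controls was left out of the 92, and it raises every log2 ratio above the floor by 0.27, more than this SD. No paired analysis was possible because there was 1 array per group, which also left no replicate to leave out.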
